A study of Mus musculus with 8 samples.

Results

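The genes described here are 38 genes of glucose breakdown, glucose and lactate transport, glycogen metabolism and the response to low oxygen, out of 35275 genes in an RNA-seq table of mouse myotubes. They were taken by gene symbol, matched through the Ensembl gene IDs of the table, and divide into 21 glycolysis genes, 5 transporters, 7 glycogen genes and 5 hypoxia genes. Myotubes are the multinucleated muscle cells that form in culture when myogenic progenitor cells (MPCs) fuse. These were grown from primary MPCs of C57BL6/J mice in high-glucose medium with horse serum, and then received extracellular vesicles (EVs, small membrane particles that cells release) isolated with a polymer. The treated groups received MPC EVs for 12 h or 24 h, and the control groups received EVs prepared from growth medium for the same times, with 2 libraries in each of the 4 groups. The strain, the culture and the high-glucose medium were common to all groups. No group of myotubes without added EVs was analysed here, so a rise with MPC EVs and a fall with the control preparation cannot be told apart. The question was which of these genes differed between MPC EV and control myotubes, and whether the muscle form of an enzyme moved differently from its other forms.

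Glycolysis splits glucose into pyruvate through a chain of enzymes that begins with hexokinase and ends with pyruvate kinase, and lactate dehydrogenase then converts pyruvate into lactate. Skeletal muscle stores glucose as glycogen, which glycogen synthase builds and glycogen phosphorylase breaks down, and for many of these steps it uses an isoform encoded by its own gene. The transcription factor HIF-1 raises many glycolytic genes when oxygen is low, and prolyl hydroxylases mark its alpha subunit for degradation when oxygen is present.

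Levels are FPKM, fragments per kilobase of gene and per M fragments in the library (M for mega), and each pair of levels below is replicate 1 then replicate 2. Differences are on the log2(FPKM + 0.5) scale with their standard error, which understates the change of genes with low levels. Adjusted p-values are from limma with Benjamini-Hochberg adjustment over the 10981 genes that averaged 1 FPKM or more, with n = 2 libraries a group, and a gene passed at an adjusted p under 0.05. Of the 38 genes, 34 were tested. The other 4 had means under 1 FPKM and 0 to 38 fragments per library: the brain aldolase Aldoc (0.192 to 0.836 FPKM), the glucose transporter Slc2a3 (0 to 0.0564), Pfkfb1 (0.237 to 0.517) and Phkg1 (0.299 to 0.62), a catalytic subunit of phosphorylase kinase. Whether the replicates were grown as separate cultures is not stated in the labels, so each p-value reflects only how far the replicate libraries spread, and that spread could be technical.

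Depth was 16.3 to 20.2 M fragments per library, and the 38 genes held 1.49% to 1.79% of them. Of 12 myotube markers, 11 had a mean of at least 1 FPKM, while markers of endothelial cells, macrophages and fat cells were all under 1 FPKM. Replicates of 3 groups correlated at 0.992 to 0.996 across genes, and those of control 12 h at 0.947. In control 12 h replicate 2, 965 long transcripts of low GC content had a median of -1.03 (log2) relative to the other libraries, against -0.10 to 0.25 in each of the other 7. Among the 34 tested genes Hif1a stood apart in this library, at -1.75 (log2) relative to replicate 1, and the others lay between -0.18 and 0.52. The Hif1a transcript has a GC content of 41.3%, the lowest of the 34, and a length of 4724 bases. Next in GC content were Bnip3 (41.6%, 1756 bases) at -0.08, Gbe1 (42.3%, 3734 bases) at -0.18 and Slc16a1 (42.9%, 4426 bases) at 0.08. The reason for the low Hif1a value was not tested. The counts of these genes that passed are also given without this library, a choice made after the data were seen.

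**Figure D1:**
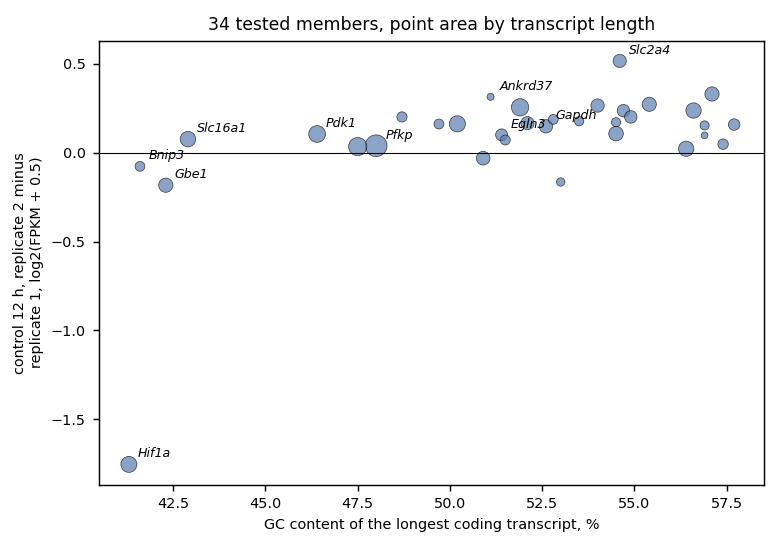
Difference between control 12 h replicate 2 and replicate 1 (log2(FPKM + 0.5), y axis) for the 34 tested genes against the GC content of the longest coding transcript (%, x axis), with point area proportional to transcript length. Hif1a lies at -1.75 and the other 33 genes between -0.18 and 0.52.

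Glycolytic transcripts were among the most abundant of the set. The mean over the 8 libraries was 2758 FPKM for Gapdh, 1594 for Aldoa, 1059 for Pkm, 924 for Eno1, 514 for Eno3, 457 for Ldha and 418 for Pgk1. Transporters and the hypoxia genes were lower, at 37.5 FPKM for Slc2a1, 24.4 for Slc16a1, 1.28 for Slc2a4, 90.7 for Vegfa, 41.7 for Bnip3 and 1.01 for Ankrd37. In the glycogen group the highest means were 95.5 FPKM for Gyg, 92.8 for Pygm and 75.6 for Gys1. FPKM is divided by gene length, so these levels can be compared between genes.

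With MPC EVs, 10 of the 34 tested genes were higher over both times and none was lower. They were 5 glycolysis genes (Pfkm, Aldoa, Tpi1, Pgam2 and Pdk1), all 4 tested transporters (Slc2a1, Slc2a4, Slc16a1 and Slc16a3) and the muscle glycogen phosphorylase Pygm. No hypoxia gene passed. Slc2a4 reached the filter of 1 FPKM only through its level in the MPC EV groups. In bulk RNA such as this, fewer cells of a type and less RNA per cell cannot be told apart. Over all tested genes 8.54% were called in this comparison, 4.2% higher and 4.34% lower. The median difference of the 34 genes was 0.14, against -0.06 over all tested genes. The medians by role were 0.13 for glycolysis, 0.38 for transport, 0.17 for glycogen and -0.02 for the hypoxia genes. In 13 of the 34 genes (38.2%) both MPC EV libraries lay above both control libraries at each time, against 8.33% of all tested genes, and Pygb alone lay below at each time, against 17.2%. Without control 12 h replicate 2, 13 of the 34 genes were higher and the 10 were among them, against 5.97% of all tested genes higher. Without control 12 h replicate 1, 1 was higher, against 2.9%, and without each of the other 6 libraries 2 to 4 were, against 2.19% to 2.6%. With a correction for GC content and gene length 8 were higher, against 4.24%.

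**Figure D2:**
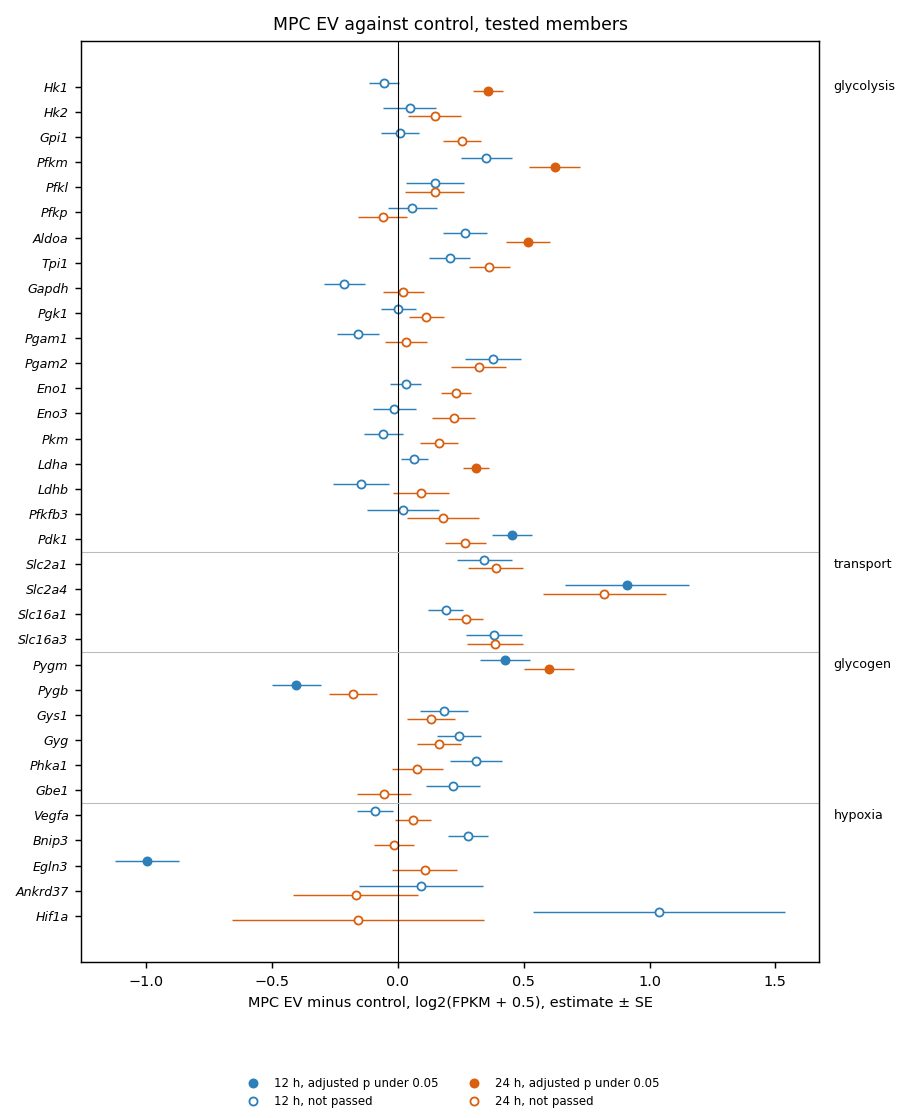
Difference between MPC EV and control myotubes at 12 h (blue) and 24 h (orange) for the 34 tested genes, as the limma estimate ± SE on the log2(FPKM + 0.5) scale, with filled points at an adjusted p under 0.05. Pygm is filled at both times, Egln3 lies at -0.997 at 12 h and 0.11 at 24 h, and the wide bars of Hif1a come with its low level in control 12 h replicate 2.

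At 12 h, 3 genes were higher with MPC EVs (Pdk1, Slc2a4 and Pygm) and 2 were lower (Pygb and Egln3). Of all tested genes, 18.6% were called at 12 h, 4.36% higher and 14.3% lower. At 24 h, 5 genes were higher (Hk1, Pfkm, Aldoa, Ldha and Pygm) and none was lower, against 3.57% of all tested genes called, 2.61% higher and 0.956% lower. The median difference was 0.12 at 12 h, against -0.12 over all tested genes, and 0.16 at 24 h, against -0.03. For the glycolysis genes the median was 0.03 at 12 h and 0.22 at 24 h. The counts depended on scaling: median-ratio scaling gave 14 higher and 1 lower genes at 12 h, against 6.7% and 4.99% of all tested genes. With it the share of higher genes among all calls at 12 h went from 23.4% to 57.3%. Without control 12 h replicate 2, the 12 h counts were 11 higher and 1 lower, against 5.75% and 10.4% of all tested genes, and the 24 h count was 11 higher, against 5.32%. Without control 12 h replicate 1 the 24 h count was 12 higher, against 5.48%, and without each of the other 6 libraries it was 0, against 0.209% to 1.25%. Both MPC EV libraries lay above both controls in 18 of the 34 genes (52.9%) at 12 h, against 17.1% of all tested genes. At 24 h they did in 22 (64.7%), against 23.7%. They lay below both controls in 5 genes (14.7%) at 12 h, against 45.0%, and in 2 (5.88%) at 24 h, against 30.2%.

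Whether the EV effect differed between 12 h and 24 h was tested directly. None of the 34 genes passed in limma, and no gene of the 10981 did (0.0%), with 4 of the 34 and 2014 of all at an unadjusted p under 0.05. The voom fit of limma to recovered fragments also called none. Leaving out control 12 h replicate 1 changed this: 7 of the 34 genes then had a higher and 1 a lower effect at 24 h, while 33.4% of all tested genes were called, 17.8% higher and 15.6% lower. Leaving out control 12 h replicate 2 called none of the 34.

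Among the early enzymes, phosphofructokinase catalyses the committed step of glycolysis. Its muscle form Pfkm (ENSMUSG00000033065, chr15:98092589-98132451) stood at 57.9 and 68.3 FPKM in control and 82.7 and 78.0 FPKM with MPC EVs at 12 h, and at 45.2 and 45.9 against 75.5 and 65.6 at 24 h. Both MPC EV libraries were above both controls at each time. The difference was 0.35 ± 0.10 at 12 h (adjusted p = 0.0586), 0.62 ± 0.10 at 24 h (adjusted p = 0.0325) and 0.49 ± 0.09 over both times (adjusted p = 0.0161). The liver form Pfkl stood at 24.0 and 30.3 against 28.4 and 31.6 FPKM at 12 h, and at 33.3 and 35.1 against 38.1 and 37.6 at 24 h. Its groups overlapped at 12 h and the difference over both times was 0.15 ± 0.08 (adjusted p = 0.29). The platelet form Pfkp lay between 7.38 and 9.51 FPKM in all 8 libraries. Its exons share 748 bases with Pitrm1 on the opposite strand, and these libraries do not record the strand.

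The hexokinases trap glucose in the cell by phosphorylating it. Hk1, the broadly expressed form, stood at 15.2 and 15.5 FPKM in control and 14.5 and 15 with MPC EVs at 12 h, and at 16.1 and 15.7 against 20.7 and 20.4 at 24 h. The MPC EV libraries at 24 h were above the other 6, and the difference there was 0.36 ± 0.06 (adjusted p = 0.0353). Hk2, the form that predominates in muscle, stood at 27.5 and 33.0 against 29.1 and 33.3 FPKM at 12 h, and at 32.9 and 33.0 against 37.4 and 35.7 at 24 h. Hk2 did not pass at either time (0.05 ± 0.11 and 0.15 ± 0.11). For Hk1 the test of the difference between the times gave 0.41 ± 0.09 (adjusted p = 0.14).

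Aldolase A, Aldoa (ENSMUSG00000030695, chr7:126795234-126800751), splits fructose bisphosphate. Its level was 1469 and 1633 FPKM in control and 1937 and 1792 with MPC EVs at 12 h, and 1206 and 1228 against 1831 and 1655 at 24 h. The groups did not overlap at either time, and the difference was 0.27 ± 0.09 at 12 h (adjusted p = 0.0789), 0.52 ± 0.09 at 24 h (adjusted p = 0.0359) and 0.39 ± 0.08 over both times (adjusted p = 0.0231). Tpi1, which interconverts the 3-carbon products, stood at 219 and 247 against 281 and 256 FPKM at 12 h and at 211 and 205 against 274 and 260.4 at 24 h. It passed over both times (0.28 ± 0.06, adjusted p = 0.0379), with no overlap of groups at either time. Gpi1, the isomerase upstream of phosphofructokinase, ranged from 155 to 199 FPKM and did not pass in any comparison.

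In the lower chain, the muscle phosphoglycerate mutase Pgam2 (ENSMUSG00000020475, chr11:5801640-5803733) stood at 65.6 and 70.2 FPKM in control and 96.8 and 80.8 with MPC EVs at 12 h, and at 52.8 and 54.8 against 72.5 and 62.5 at 24 h. The difference over both times was 0.35 ± 0.08 (adjusted p = 0.0332), and under the GC and length correction 0.52 (adjusted p = 0.0588), which ends the call. Its broadly expressed counterpart Pgam1 stood at 53.0 and 60.4 against 48.3 and 53.1 FPKM at 12 h, and at 62.0 and 59.7 against 63.1 and 61.1 at 24 h, with overlapping groups at each time. The enolases, which form phosphoenolpyruvate, did not pass with MPC EVs in either form. Eno3, the muscle form, had a difference of 0.10 ± 0.07 over both times (adjusted p = 0.418), and Eno1 0.13 ± 0.06 (adjusted p = 0.209). Gapdh, Pgk1 and Pkm passed in no EV comparison, with differences over both times of -0.10, 0.06 and 0.05.

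At the fate of pyruvate, Pdk1 encodes a kinase that switches off pyruvate dehydrogenase and so limits entry of pyruvate into the mitochondrial cycle. Pdk1 (ENSMUSG00000006494, chr2:71873224-71903858) stood at 6.42 and 6.95 FPKM in control and 9.45 and 9.21 with MPC EVs at 12 h, and at 8.31 and 8.97 against 10.4 and 10.6 at 24 h. All 4 MPC EV libraries were above all 4 controls, and the difference was 0.45 ± 0.08 at 12 h (adjusted p = 0.0183) and 0.36 ± 0.07 over both times (adjusted p = 0.0207). Under the GC and length correction the latter was 0.29 (adjusted p = 0.093), which ends the call. Ldha, the lactate dehydrogenase subunit favoured in fast muscle, stood at 509 and 535 against 549 and 542 FPKM at 12 h, and at 339 and 341 against 422 and 422 at 24 h. It passed at 24 h (0.31 ± 0.05, adjusted p = 0.0359) and not over both times (0.19 ± 0.06, adjusted p = 0.111). Ldhb, the heart form, ranged from 16.3 to 24.4 FPKM, and Pfkfb3, which makes an activator of phosphofructokinase, from 1.38 to 1.86 FPKM. Neither passed in any comparison.

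The 4 tested transporters all passed higher over both times, against 4.2% of all tested genes. Slc2a1 (GLUT1, the basal glucose transporter, ENSMUSG00000028645, chr4:119108711-119137983) stood at 19.7 and 23.7 FPKM in control and 26.4 and 28.8 with MPC EVs at 12 h, and at 41.0 and 46.1 against 58.2 and 55.9 at 24 h. Its difference was 0.37 ± 0.08 (adjusted p = 0.0277), with no overlap at either time. Slc2a4 (GLUT4, the insulin-responsive transporter of muscle and fat) stood at 0.401 and 0.789 against 1.48 and 1.57 FPKM at 12 h, and at 1.16 and 0.745 against 2.4 and 1.72 at 24 h. Those levels rest on 24 to 125 fragments per library. The control means of Slc2a4 were 0.595 FPKM at 12 h and 0.952 at 24 h, against 1.53 and 2.06 with MPC EVs. Slc2a4 was therefore tested only because of its level in the MPC EV groups, and its calls are limited by that. The difference was 0.91 ± 0.25 at 12 h (adjusted p = 0.0497) and 0.87 ± 0.17 over both times (adjusted p = 0.0207).

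Slc16a1 and Slc16a3 encode the monocarboxylate transporters MCT1 and MCT4, the latter known for lactate export from glycolytic muscle. Slc16a3 stood at 7.98 and 9.49 FPKM in control and 10.7 and 12.4 with MPC EVs at 12 h, and at 9.25 and 9.21 against 12.1 and 12.4 at 24 h. Its difference over both times was 0.38 ± 0.08 (adjusted p = 0.0251). Slc16a1 stood at 19.5 and 20.5 against 22.1 and 23.7 FPKM at 12 h, and at 24.6 and 25 against 31.1 and 29.0 at 24 h, a difference of 0.23 ± 0.06 (adjusted p = 0.046). Under the GC and length correction it was 0.14 (adjusted p = 0.562), which ends the call. In both genes the MPC EV libraries were above the controls of the same time.

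**Figure D3:**
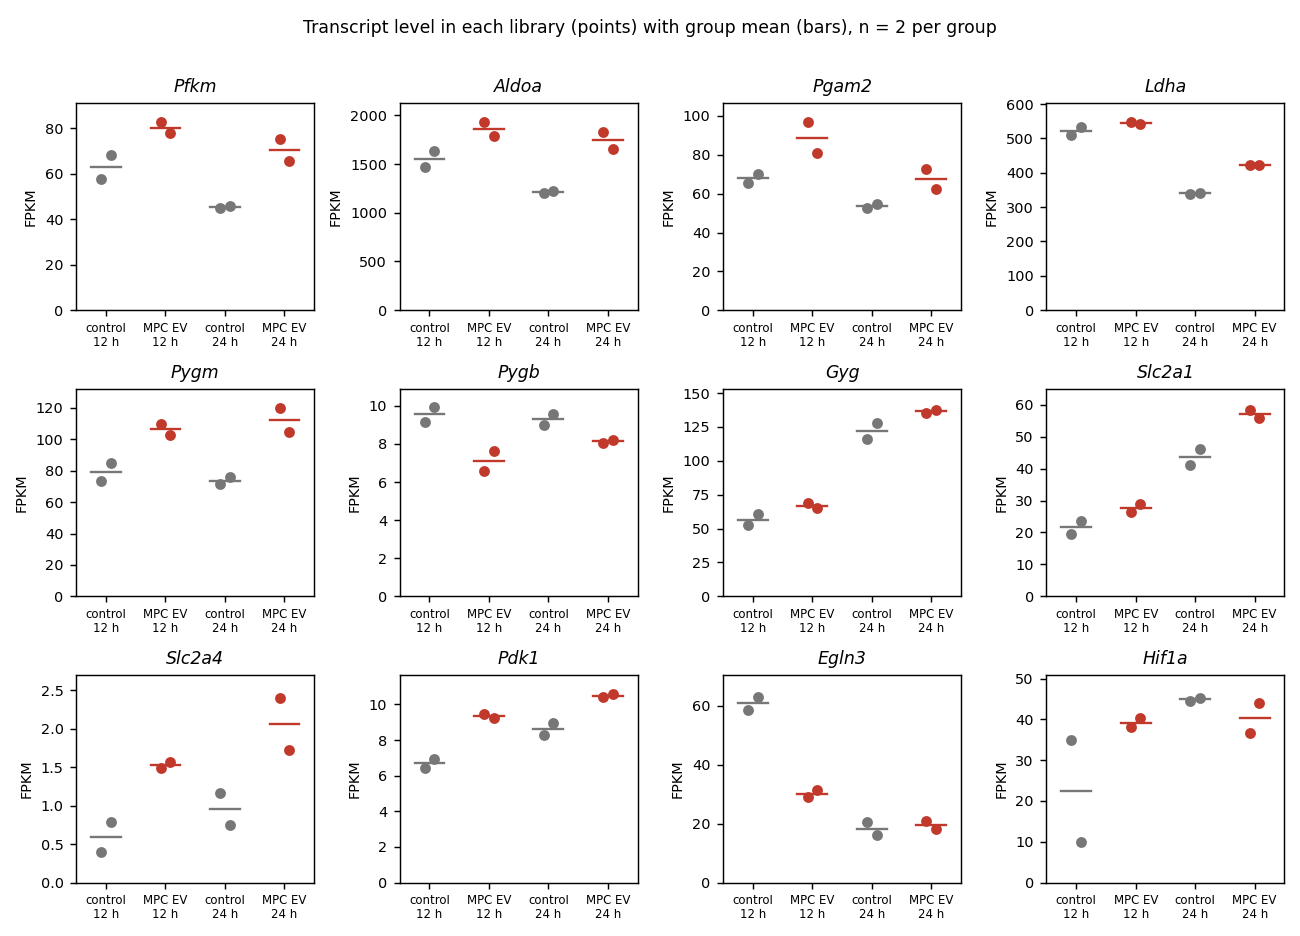
Level in FPKM (y axis, starting at 0) of 12 genes in each library, with points for the 2 libraries of a group and bars for their mean, control in grey and MPC EV in red. Pygm was at 71.4 to 84.7 in the 4 controls and 103 to 119.9 in the 4 MPC EV libraries, while Egln3 was at 58.7 and 62.9 in control at 12 h and under 32 in every other library.

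Among the glycogen genes, 1 of 6 tested passed over both times, where 4.2% of all tested genes were higher and 4.34% lower. Glycogen phosphorylase releases glucose units from glycogen. Pygm, the muscle form (ENSMUSG00000032648, chr19:6384399-6398459), stood at 73.7 and 84.7 FPKM in control and 109.7 and 103 with MPC EVs at 12 h, and at 71.4 and 76.0 against 119.9 and 104 at 24 h. All 4 MPC EV libraries were above all 4 controls. The difference was 0.43 ± 0.10 at 12 h (adjusted p = 0.0352), 0.60 ± 0.10 at 24 h (adjusted p = 0.0329) and 0.51 ± 0.08 over both times (adjusted p = 0.0085). In a fit with the replicate number as a block, the call over both times was lost. The last call was kept without each of the 8 libraries in turn, with adjusted p up to 0.0375.

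Pygb, the brain form (ENSMUSG00000033059, chr2:150786735-150831758), moved the other way at 12 h. It stood at 9.18 and 9.92 FPKM in control and 6.57 and 7.64 with MPC EVs at 12 h, and at 9.02 and 9.58 against 8.07 and 8.23 at 24 h. Both MPC EV libraries were below both controls at each time. The difference was -0.40 ± 0.10 at 12 h (adjusted p = 0.0376), -0.18 ± 0.10 at 24 h (adjusted p = 0.521) and -0.29 ± 0.08 over both times (adjusted p = 0.073). The call at 12 h was lost under median-ratio scaling, under the correction for GC content and length, and without control 12 h replicate 2 (-0.35, adjusted p = 0.0759).

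The other glycogen genes did not pass in any EV comparison. Gyg, which encodes the glycogenin primer on which glycogen is built, stood at 52.5 and 60.4 FPKM in control and 68.6 and 64.9 with MPC EVs at 12 h, and at 116 and 128 against 136 and 138 at 24 h. Its groups did not overlap at either time, and the difference over both times was 0.20 ± 0.06 (adjusted p = 0.0987). For Gys1, the muscle glycogen synthase, the difference was 0.16 ± 0.07 (adjusted p = 0.194). Gys1 shares 310 exon bases with Ruvbl2 on the opposite strand. Phka1, the muscle regulatory subunit of phosphorylase kinase, ranged from 3.64 to 4.9 FPKM, and Gbe1, the branching enzyme, from 4.98 to 7.86.

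Over both times 6 of 11 tested muscle isoforms passed higher (Pfkm, Aldoa, Pgam2, Slc2a4, Slc16a3 and Pygm), with a median of 0.35, and 2 of 9 other isoforms did (Slc2a1 and Slc16a1), with a median of 0.13. These are counts of named genes, and the lists themselves were not compared by a test. Slc2a4 is counted among the muscle isoforms although it reached the filter of 1 FPKM only through the MPC EV groups. Over all tested genes, 4.2% passed higher over both times and the median was -0.06. Without control 12 h replicate 2 the counts were 8 of 11 and 2 of 9. The balance within a pair was compared as the log2 ratio of muscle to other isoform in each library, by an exact two-sided permutation test of the MPC EV and control labels within each time, for 9 pairs. The 36 permutations allow no p under 0.0556, so no pair could pass 0.05.

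The ratio was higher with MPC EVs, with no overlap at either time, in 5 of the 9 pairs. For Pygm to Pygb the log2 ratio stood at 2.94 and 3.03 in control and 3.96 and 3.67 with MPC EVs at 12 h, and at 2.92 and 2.92 against 3.81 and 3.58 at 24 h. On a linear scale that is 7.92 against 14.1 at 12 h and 7.57 against 13.0 at 24 h. Pygm accounted for 88.8% to 89.5% of the Pygm and Pygb signal in the 4 controls and 92.7% to 94.3% in the 4 MPC EV libraries. The difference of the log2 ratio was 0.80 (exact permutation p = 0.0556, the smallest possible, adjusted over 9 pairs 0.1).

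The other 4 pairs at that p were Pfkm to Pfkp (0.49), Pgam2 to Pgam1 (0.41), Pfkm to Pfkl (0.34) and Slc16a3 to Slc16a1 (0.15). Pgam2 made up 55.3% and 53.7% of the mutase signal in control at 12 h and 66.7% and 60.3% with MPC EVs, and 46.0% and 47.9% against 53.4% and 50.5% at 24 h. Slc2a4 to Slc2a1 gave 0.50 and Ldha to Ldhb 0.22, each with an overlap at 1 of the times (exact permutation p = 0.111, adjusted 0.143). The former depended on the value added before the log, at 0.80 with 0.1 FPKM (exact permutation p = 0.0556) and 0.30 with 1 FPKM (exact permutation p = 0.111). The enolase pair gave -0.03 (exact permutation p = 0.5), with overlapping groups at each time. The hexokinase pair gave -0.05 over both times (exact permutation p = 0.556), and its groups overlapped at 12 h (0.10). At 24 h both MPC EV libraries, with log2 ratios of Hk2 to Hk1 of 0.84 and 0.79, lay below both controls at 1.00 and 1.05 (-0.21). Eno3 made up 33.7% to 38.5% of the enolase signal in all 8 libraries. Pfkm is shared by 2 of the pairs, which are therefore not independent. Gm4735, a near copy of Eno1 with a mean of 1.39 FPKM, and Pgam1-ps2, a copy of Pgam1 at 1.39 FPKM, could share reads with those genes.

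**Figure D4:**
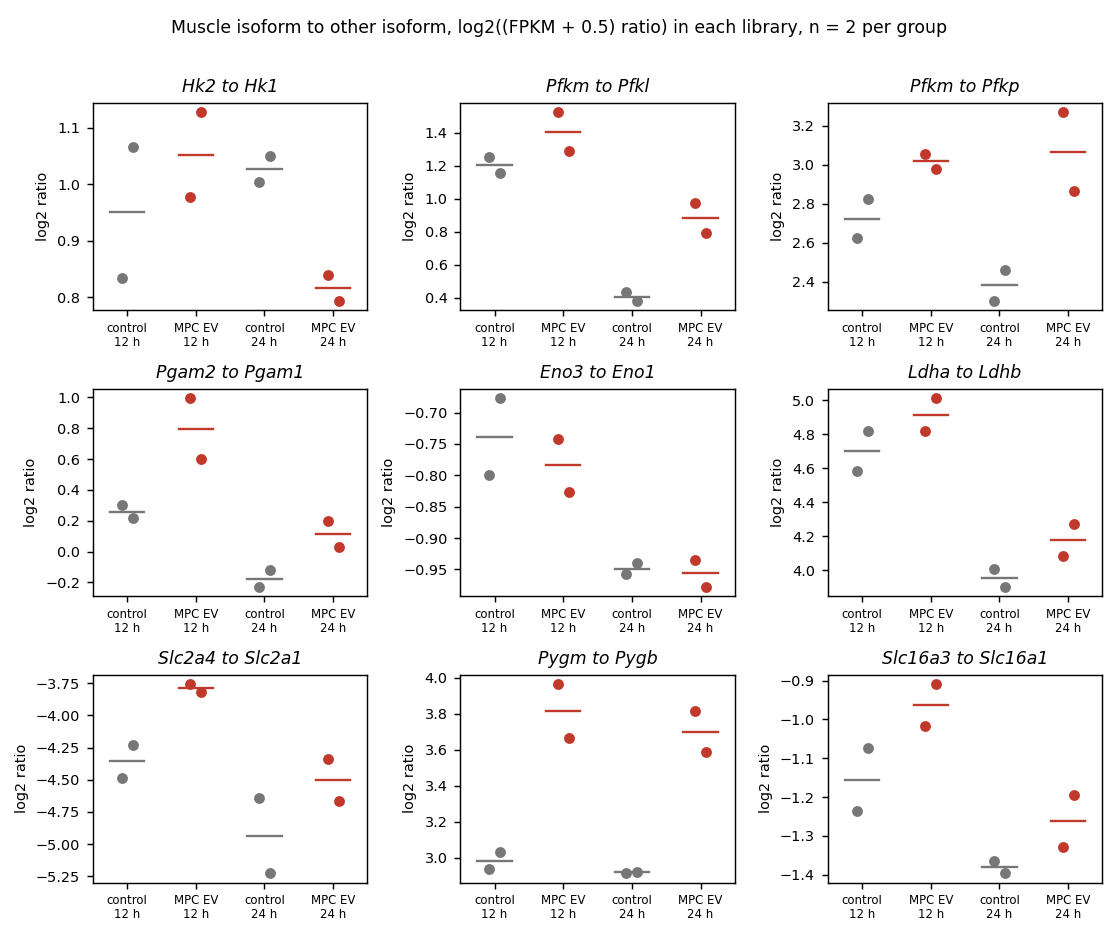
Log2 ratio of the muscle isoform to its counterpart (y axis, log2 of the ratio of FPKM + 0.5; scales differ between panels) in each library for 9 pairs, with points for libraries and bars for the mean of n = 2. The MPC EV points (red) lie above the control points (grey) of the same time in Pfkm to Pfkl, Pfkm to Pfkp, Pgam2 to Pgam1, Pygm to Pygb and Slc16a3 to Slc16a1.

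Promoters of 2 of these pairs are shown. In each, the muscle isoform rose with MPC EVs over both times and its counterpart did not pass higher. The pairs with Pfkm also met this and are not shown. The windows cover the 250 bases before the transcription start in RefSeq (GRCm38.p6), 5′ to 3′ on the strand of the gene. Capitals mark ACGTG and GCGTG, the core of the hypoxia response element, and CAGCTG, an E-box bound by myogenic factors, on either strand. Pygm lies at chr19:6384158-6384407 (plus strand), Pygb at chr2:150786546-150786795 (plus), Pgam2 at chr11:5803797-5804046 (minus) and Pgam1 at chr19:41911621-41911870 (plus).
Pygm: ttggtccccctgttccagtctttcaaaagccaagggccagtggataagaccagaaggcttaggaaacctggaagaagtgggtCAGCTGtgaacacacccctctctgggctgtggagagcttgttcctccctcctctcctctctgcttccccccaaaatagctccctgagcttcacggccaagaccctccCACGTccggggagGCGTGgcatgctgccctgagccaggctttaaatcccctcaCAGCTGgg
Pygb: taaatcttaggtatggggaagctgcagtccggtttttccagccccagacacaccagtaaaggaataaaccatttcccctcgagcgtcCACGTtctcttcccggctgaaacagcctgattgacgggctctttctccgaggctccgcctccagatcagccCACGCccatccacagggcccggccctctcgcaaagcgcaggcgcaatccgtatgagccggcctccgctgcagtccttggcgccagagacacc
Pgam2: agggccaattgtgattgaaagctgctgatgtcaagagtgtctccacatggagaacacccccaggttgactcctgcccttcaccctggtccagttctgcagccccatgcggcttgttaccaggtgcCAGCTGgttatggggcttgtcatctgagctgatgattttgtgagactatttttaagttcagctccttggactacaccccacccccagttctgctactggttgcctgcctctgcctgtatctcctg
Pgam1: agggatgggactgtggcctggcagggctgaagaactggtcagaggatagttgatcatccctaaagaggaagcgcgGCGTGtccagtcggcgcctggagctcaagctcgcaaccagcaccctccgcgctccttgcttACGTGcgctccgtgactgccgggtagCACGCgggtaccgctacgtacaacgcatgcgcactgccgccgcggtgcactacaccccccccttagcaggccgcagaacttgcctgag
The window of Pygm holds CAGCTG 2 times and that of Pgam2 holds it 1 time. The windows of Pygb and Pgam1 have no match to it. Those of Pfkm, Aldoa and Slc16a3, muscle isoforms that also passed higher over both times, have no match either. Of 53 windows of 36 of the genes, 10 (18.9%) hold CAGCTG, against 13.1% of all 32536 windows and 12.0% of the 10849 windows of tested genes. A match is a description of letters and no evidence of binding.

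Of the 5 hypoxia genes, none passed higher with MPC EVs and Egln3 passed lower at 12 h. Egln3 encodes a prolyl hydroxylase that acts on the HIF alpha subunits and is itself a known HIF target. It is at chr12:54178981-54203860 (ENSMUSG00000035105). Its level was 58.7 and 62.9 FPKM in control and 29.1 and 31.3 with MPC EVs at 12 h, and 20.5 and 16.1 against 21.0 and 18.3 at 24 h. The controls at 12 h were above all other libraries, both MPC EV libraries at 12 h came next, and the 24 h groups overlapped. The difference was -0.997 ± 0.13 at 12 h (adjusted p = 0.00803) and 0.11 ± 0.13 at 24 h (adjusted p = 0.878). The call at 12 h was lost without either MPC EV library of that time and in the fit to 12 h alone.

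The change of the Egln3 effect from 12 h to 24 h was 1.10 ± 0.18 and did not pass (adjusted p = 0.114). When each of the 8 libraries was left out in turn, this change ranged from 0.93 to 1.27. It passed under 1 omission, that of control 12 h replicate 1, and not under the other 7. That omission leaves the library that stood apart as the lone control at 12 h. The difference between 24 h and 12 h in Egln3 was -1.72 (log2) in control and -0.61 in MPC EV myotubes, with no overlap of the times in either.

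Hif1a, the oxygen-regulated subunit of HIF-1 (chr12:73901375-73947530), stood at 35.0 and 10.0 FPKM in control and 38.2 and 40.2 with MPC EVs at 12 h, and at 44.5 and 45.4 against 36.7 and 44.0 at 24 h. Control 12 h replicate 2 was the low library. With both controls the difference at 12 h was 1.04 ± 0.50 (adjusted p = 0.178). Leaving out control 12 h replicate 2 gave 0.16 (adjusted p = 0.311), and leaving out replicate 1 gave 1.91 (adjusted p = 3.81e-05), so this value rests on which control library is used.

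Vegfa, which encodes a growth factor for blood vessels, stood at 90.5 and 88.6 FPKM in control and 87.7 and 80.3 with MPC EVs at 12 h, and at 91.1 and 94.1 against 91.9 and 101 at 24 h. Bnip3, a mitophagy receptor, stood at 41.6 and 39.4 against 52.0 and 46.5 FPKM at 12 h, and at 38.7 and 38.7 against 36.6 and 40.0 at 24 h. Its difference at 12 h was 0.28 ± 0.08 (adjusted p = 0.056), with no overlap of groups. Ankrd37 lay between 0.695 and 1.42 FPKM, with 13 to 26 fragments per library. None of these 3 genes passed in any comparison.

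Between 12 h and 24 h, genes of the set differed in both directions. Time in culture and time since the EVs were added cannot be told apart here. With treatment held fixed, 6 of the 34 genes were higher at 24 h than at 12 h (Pfkl, Pdk1, Slc2a1, Slc16a1, Gyg and Gbe1) and 7 were lower (Pfkm, Pgk1, Pgam2, Eno1, Eno3, Ldha and Egln3). Over all tested genes 22.7% were called, 13.5% higher and 9.18% lower. The median was 0.03, against 0.06 over all tested genes. Glycolysis genes had a median of -0.12, with 2 of 19 higher and 6 lower, the transporters 0.36 and the glycogen genes 0.15, with 2 higher and none lower in each. In 9 of the 34 genes (26.5%) the 24 h libraries lay above the 12 h libraries in both treatments, against 20.8% of all tested genes, and in another 9 they lay below, against 12.4%. Without control 12 h replicate 2, 10 genes were higher and 8 lower, with all 13 calls kept, against 23% and 15% of all tested genes.

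Gyg and Slc2a1 had the greatest rises with time. Gyg went from 52.5 to 68.6 FPKM over the 4 libraries at 12 h to 116 to 138 at 24 h, a difference of 1.07 ± 0.06 (adjusted p = 8.03e-05). Slc2a1 went from 19.7 to 28.8 FPKM at 12 h to 41.0 to 58.2 at 24 h, a difference of 1.01 ± 0.08 (adjusted p = 0.000157). The difference in Gyg was 1.11 in control and 1.03 in MPC EV myotubes, and in Slc2a1 0.99 and 1.04. Smaller rises were seen for Gbe1 (0.38), Slc16a1 (0.35), Pfkl (0.33) and Pdk1 (0.25).

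Egln3 (-1.16 ± 0.22, adjusted p = 0.00902) and Ldha (-0.49 ± 0.06, adjusted p = 0.00143) led the falls with time. Eno3, with 559.9 to 631 FPKM at 12 h and 397 to 491 at 24 h, fell by 0.44 (log2, adjusted p = 0.00559). Eno1, with 975 to 1028 FPKM at 12 h and 772 to 938 at 24 h, fell by 0.25 (adjusted p = 0.0209). Pgam2 fell by 0.36, Pfkm by 0.33 and Pgk1 by 0.21. The calls for Gyg, Slc2a1, Slc16a1, Eno3, Ldha and Egln3 were kept without each of the 8 libraries in turn. That for Slc16a1 was lost under the GC and length correction, without median-ratio scaling (0.30, adjusted p = 0.132) or with it (0.25, adjusted p = 0.157). The same corrections ended the time calls of Eno1, Pdk1 and Pgam2.

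**Figure D5:**
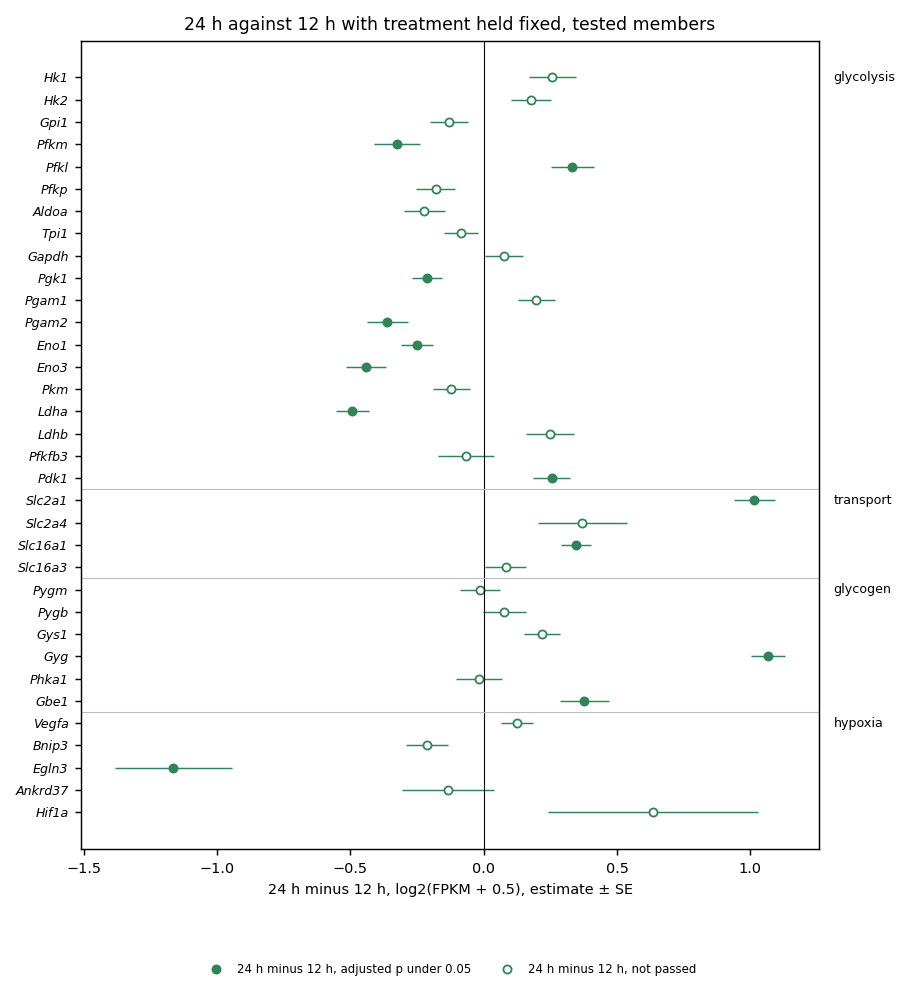
Difference between 24 h and 12 h with treatment held fixed for the 34 tested genes, as the limma estimate ± SE on the log2(FPKM + 0.5) scale, with filled points at an adjusted p under 0.05. Gyg (1.07) and Slc2a1 (1.01) lie farthest to the right and Egln3 (-1.16) farthest to the left, while 6 glycolysis genes lie to the left as filled points.

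The promoters of Slc2a1 and Egln3, which moved in opposite directions with time, are shown for their hypoxia response element cores, capitalised as above. Slc2a1 is at chr4:119108495-119108744 (plus strand) and Egln3 at chr12:54203875-54204124 (minus).
Slc2a1: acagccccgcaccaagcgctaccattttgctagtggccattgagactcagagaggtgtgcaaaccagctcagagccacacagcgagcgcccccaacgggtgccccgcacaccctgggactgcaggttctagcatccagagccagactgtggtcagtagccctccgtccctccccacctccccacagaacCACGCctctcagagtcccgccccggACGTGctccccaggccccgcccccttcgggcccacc
Egln3: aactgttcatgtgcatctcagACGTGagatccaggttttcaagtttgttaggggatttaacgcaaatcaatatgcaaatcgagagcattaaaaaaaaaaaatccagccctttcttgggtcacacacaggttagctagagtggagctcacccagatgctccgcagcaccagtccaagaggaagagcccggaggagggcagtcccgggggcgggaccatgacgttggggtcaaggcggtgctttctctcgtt
The Slc2a1 window holds ACGTG and GCGTG 1 time each, and the Egln3 window holds ACGTG 1 time. ACGTG or GCGTG occurs in 38 of the 53 windows (71.7%), against 38.8% of all windows and 57.5% of those of tested genes. The median GC content was 59.6% in the 53 windows and 60.4% in those of tested genes. The CACGTG sequence contains ACGTG on both strands, and these overlap.

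Marker genes of the cells in the culture were read beside these results. The summed level of the 12 myotube markers was 16780 to 19670 FPKM in control and 18940 to 20260 with MPC EVs at 12 h, and 12580 to 12850 against 15940 to 17710 at 24 h. Of 11 tested, 5 were higher with MPC EVs over both times, against 4.2% of all tested genes. In sign, 9 of the 11 had a positive and 2 a negative difference over both times. With time 7 were lower at 24 h than at 12 h, against 9.18%. Acta1 (mean 6893 FPKM) and Mylpf (4777), which make up most of the sum, did not pass with MPC EVs (0.26 and 0.22). The myosin heavy chains Myh3 (1.69), Myh8 (1.72) and Myh7 (1.78), the Z-disc protein gene Actn2 (2.18) and Ckm, muscle creatine kinase (0.67), were those that rose over both times. Summed progenitor markers, all 7 tested, were at 438.5 to 473.5 against 456.3 to 472.4 FPKM at 12 h and 314.2 to 315.7 against 359.2 to 386.9 at 24 h. Fibroblast markers, with 3 of 8 at 1 FPKM or more, summed to 38.9 to 41.3 against 26.6 to 31.9 and 48.5 to 51.0 against 35.0 to 35.5. The 8 cell cycle markers summed to 203 to 213 against 122 to 130.2 and 181 to 183 against 159 to 170.3. The part of these markers in the results for the muscle isoforms was not tested.

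Genes of the same pathways outside the 38 were read from lists of their own. Of 15 tested genes among 22 of glycolysis and pyruvate use, 2 were higher with MPC EVs at 12 h, 2 were lower and none passed at 24 h, beside 4.36% higher and 14.3% lower at 12 h over all tested genes. Pdk4, another pyruvate dehydrogenase kinase, fell by 0.93 at 12 h (adjusted p = 0.00332), whereas the phosphatase gene Pdp1 rose by 0.90 (adjusted p = 0.0159) and Mpc1, a subunit of the mitochondrial pyruvate carrier, rose by 0.78 (adjusted p = 0.00784). With time 2 rose, beside 13.5% of all tested genes. Among them was Eno2, an enolase isoform known from neurons, by 0.83 (adjusted p = 0.00236).

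Of 15 tested genes among 20 of glycogen metabolism, 2 were higher with MPC EVs at 12 h and over both times and none was lower, beside 4.36% and 4.2% higher over all tested genes. Among them Ppp1r3c, which encodes a glycogen-targeting subunit of protein phosphatase 1, rose by 1.00 at 12 h (adjusted p = 0.0183) and 0.89 over both times (adjusted p = 0.00758). With time 3 rose, among them Stbd1, a glycogen-binding protein (0.78, adjusted p = 0.000258), and 2 fell, among them Phka2, a regulatory subunit of phosphorylase kinase (-0.39, adjusted p = 0.00665), beside 13.5% higher and 9.18% lower over all.

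Of 22 tested genes among 25 of the hypoxia response, 1 was higher and 3 were lower with MPC EVs at 12 h, beside 4.36% and 14.3% of all tested genes, and 2 were higher at 24 h, beside 2.61%. P4ha1, a collagen prolyl hydroxylase, rose by 0.55 at 12 h (adjusted p = 0.00716) and 0.42 at 24 h (adjusted p = 0.0306). Bhlhe40, a transcriptional repressor, fell by 1.21 at 12 h (adjusted p = 0.00614). With time 6 rose, among them Ndrg1 (1.25, adjusted p = 0.000766) and Ak4 (0.42, adjusted p = 0.0071), and none fell, beside 13.5% and 9.18%. All 8 pentose phosphate genes were tested, and 3 fell with MPC EVs at 12 h, beside 14.3% of all tested genes lower, among them Pgls (-0.37, adjusted p = 0.0126) and Rpia (-0.39, adjusted p = 0.037). With time Tkt rose by 0.45 (adjusted p = 0.00458) and Taldo1 by 0.29, beside 13.5% of all tested genes higher.

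Each library was left out in turn to see which calls with MPC EVs rest on it. Each of the 5 calls at 24 h was lost when any 1 of the 6 libraries other than the controls at 12 h was left out, with adjusted p of up to 0.285. At 12 h the call for Slc2a4 was kept only without control 12 h replicate 2, that for Pygb only without control 12 h replicate 1 and that for Pygm only without either of these 2. The call for Pdk1 was lost without either MPC EV library of 12 h and without MPC EV 24 h replicate 1. Without MPC EV 24 h replicate 2 it lay at the threshold. Over both times the 9 calls other than Pygm were each lost under 5 to 7 of the 8 omissions, with the same sign and adjusted p of up to 0.148. The omission of control 12 h replicate 2 ended none of them and that of control 12 h replicate 1 ended each. When a library was left out, the lone library of its group was assumed to vary like the other groups.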

How the data were processed

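The 8 RNA-seq libraries of mouse primary myotubes were grouped by the treatment and time in their labels. The authors deposited 1 table of FPKM values for all libraries. HISAT2, DESeq2 (version 2) and mm10 are named per the submitters' processing notes, without a stated role. How fragments were counted, on which annotation, and whether libraries were scaled to each other are not stated in these sources. FPKM depends on the library total, so a few abundant transcripts can move all other values. Libraries were not strand-specific, per the labels' protocols. Whole fragments were recovered from the FPKM steps for all 21406 genes above 0, within 0.0002 fragments, and gave the depth.

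Symbols and GRCm38 coordinates came from GENCODE vM21, which matched 34490 of 35275 IDs. Tests used log2(FPKM + 0.5) in limma 3.58.1 (R 4.3.3) with an intensity trend, two-sided, on genes averaging 1 FPKM or more. A fit of the 4 groups (4 residual degrees of freedom) gave the EV effects at each time and their difference. A fit of treatment and time (5 residual degrees of freedom) gave the effect across times and that of time. The steps were tested on simulated data. Alternatives were pseudocounts of 0.1 and 1, a filter at 5 FPKM and none, median-ratio and quantile scaling, a GC and length correction, no variance trend, the replicate block, fits to 1 time and each library left out. The voom fit to fragments and median-ratio scaling with the GC and length correction were added after the data were seen.

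The genes and lists were chosen with earlier results of these data known. Named with values are genes that pass in any comparison, tested isoform pairs, the hypoxia genes and up to 4 genes per pathway list with the smallest adjusted p. Promoter sequences are from RefSeq (GRCm38.p6) for 36 of the 38 genes. Some results under this rule are left out of the text.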

Additional observations from a re-analysis of the deposited data

How the results depend on the processing

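The number of the 34 tested genes that passed moved most at a single time. The share of all tested genes called in the same direction is in brackets. Higher at 12 h were 3 in the fit reported (4.36%). Median-ratio scaling gave 14 (6.7%), quantile normalization 11 (4.61%), the GC and length correction 10 (4.04%) and both scaling and correction 12 (5.91%). No filter gave 1 (1.89%) and the fit to 12 h alone 0 (0.0182%). Lower at 12 h were 2 in the fit reported (14.3%) and 0 in the fit to 12 h alone (0.082%). Each other setting just named gave 1 (2.53% to 6.8%). Higher at 24 h were 5 in the fit reported (2.61%) and 9 in the fit to 24 h alone (4.47%). The GC and length correction gave 2 without median-ratio scaling (1.92%) and 2 with it (2.01%), and no filter gave 1 (0.78%). Higher over both times were 10 in the fit reported (4.2%) and 6 with no filter (2.01%). Lower with time were 7 in the fit reported (9.18%), 11 under quantile normalization (10.6%) and 4 with no filter (4.3%). The cause of these moves was not tested, except that the filter and the fits to 1 time change how many genes or libraries are used.

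With the replicate number as a block, 0 genes were higher and 1 lower at 12 h, against 0.938% and 2% of all tested genes. At 24 h 0 were higher, against 0%. Over both times 2 were higher, against 1.8%, and with time 4 were lower, against 6.02%. Same-numbered libraries correlated at -0.0125 at 12 h and 0.241 at 24 h in their deviations, with 2 pairs, so the numbers are not taken to pair the samples.

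Leaving out 1 library at a time gave 0 to 11 genes higher and 0 to 4 lower at 12 h, 0 to 12 higher and 0 lower at 24 h, 1 to 13 higher over both times, 0 to 7 with a higher and 0 to 1 with a lower effect at 24 h than at 12 h, and 3 to 10 higher and 3 to 8 lower with time. The MPC EV minus control difference in the log2 ratio of Hk2 to Hk1 ranged from -0.11 to 0.0039. That for Eno3 to Eno1 ranged from -0.057 to 0.0044. Each difference turned positive without control 12 h replicate 2. The difference of Eno3 at 12 h, -0.01 in the fit reported, was 0.22 under quantile normalization. Median-ratio scaling moved the median of all genes at 12 h from -0.115 to 0.013. The voom fit gave 2 higher and 2 lower at 12 h (4.62% and 13.5% of all tested genes), and lost Slc2a4 at 12 h. It gave 5 higher at 24 h (2.46%) and 10 higher over both times (4.27%). With time it gave 6 higher and 7 lower (13.5% and 9.25%). With 2 libraries a group, small differences in genes of few fragments were not detectable.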
